A study of Rattus norvegicus with 11 samples.

Results

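The miR-322, miR-503 and miR-450 cluster is a group of miRNAs encoded close together on chromosome X, and it was examined here in isolated pancreatic islets of Sprague-Dawley rats. Its members were every sense-strand row of the deposited count table whose name begins with miR-322, miR-351, miR-450a, miR-450b, miR-503 or miR-542, all copies and arms included. This gave 20 of the 950 rows, and 10 of the 898 distinct names. No row carried the name miR-450b. The rule used names alone and no measured value, but it was set with earlier results of these data known. The adult group comprised 6 small RNA libraries from 3-month-old males and the P10 group 5 libraries from 10-day-old pups, all described as controls with no genotype or treatment. Replicates are biological by their labels, which leave unstated whether islets of more than one animal were pooled for a library. Only the adults are labelled by sex, so age and a possible difference in sex cannot be told apart. Libraries held 1432929 to 2847837 counts in adults and 1599157 to 4483017 at P10.

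Islets consist mostly of insulin-secreting beta cells, which are still dividing and functionally immature in suckling pups. A miRNA is cut from a hairpin precursor, which can give a mature strand from its 5′ side (5p) and one from its 3′ side (3p). The mature strand guides Argonaute proteins to messenger RNAs mainly through its seed, bases 2 to 8. miR-322 is the rodent counterpart of human miR-424, and with miR-503 it belongs to the extended miR-15/16 family, known in human and mouse cells for repressing cell-cycle genes. Human miR-542-3p is known to repress the survival and division gene survivin.

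The sequences below, from RefSeq on build GRCr8, are the 7 tested arms, miR-503-5p for its family seed, and miR-450b-5p, which has no row by that name but nearly the sequence of miR-450a-5p. The seed is in capitals, and the sequences show which members could share targets with each other and with miRNAs outside the cluster.
miR-322-5p: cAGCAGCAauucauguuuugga
miR-322-3p: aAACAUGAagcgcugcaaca
miR-503-5p: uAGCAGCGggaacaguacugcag
miR-503-3p: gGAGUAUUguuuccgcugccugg
miR-351-5p: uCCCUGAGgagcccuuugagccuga
miR-542-5p: cUCGGGGAucaucaugucacga
miR-542-3p: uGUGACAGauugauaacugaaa
miR-450a-5p: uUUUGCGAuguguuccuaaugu
miR-450b-5p: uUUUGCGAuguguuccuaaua
All 10 member names had a RefSeq mature sequence, and the length of each of the 20 rows equalled that of its RefSeq sequence. The seed of miR-322-5p, AGCAGCA, is also that of miR-15b-5p, miR-16-5p, miR-195-5p and miR-497-5p in RefSeq. The seed of miR-503-5p, AGCAGCG, is shared with no other mature sequence in that table. miR-351-5p has the seed of miR-125a-5p and miR-125b-5p, CCCUGAG. miR-450a-5p and miR-450b-5p are identical over their first 20 bases, so reads that end early cannot be told apart between them. The remaining arms shared their seed with no other RefSeq rat miRNA.

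In Rnor_5.0, the build of the files, the cluster is listed as 2 copies on the plus strand of chromosome X. The first copy starts with miR-322-5p at 152773490 to 152773511 and the second with miR-322-5p at 153211207 to 153211228. The same arms of miR-322, miR-503 and miR-351 lie 437717 bases apart in the copies, and those of miR-542 lie 437719 bases apart. The first copy holds 12 member rows over 10772 bases and the second 8 rows over 4035 bases. From the start of miR-322-5p in the first copy, miR-503-5p lies 298 bases downstream, miR-351-5p 1038, miR-542-5p 3973 and miR-450a-5p 5211. The first copy also lists a further miR-542 pair, whose 5p row lies 10712 bases downstream.

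Reads were listed at both copies, but not in equal numbers. The second copy held 59.7% ± 4.72 of the miR-322-5p counts in adults (n = 6) and 62.0% ± 4.22 at P10 (n = 5; ± SD), the share being taken of counts summed over all rows of the arm. For miR-322-3p, from the same hairpin, the second copy held 24.6% ± 8.64 in adults and 26.7% ± 2.86 at P10. Both arms of a hairpin come from the same transcript, yet one was counted mostly at the second copy and the other mostly at the first. The second-copy share was 58.8% ± 4.79 in adults and 56.0% ± 3.60 at P10 for miR-351-5p, and 28.9% ± 6.90 and 28.9% ± 2.64 for miR-542-3p. None of the 5 arms examined, miR-542-5p included, passed a test for an age difference in this share (two-sided exact permutation tests, unadjusted p of 0.288 to 0.976, 0 below 0.05; adjusted p = 0.976 for each). How reads matching both copies were assigned is not given in the sources used here, so copies are not read as separate genes. Each name therefore entered the tests once, with the higher count of its rows in each library.

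**Figure D1:**
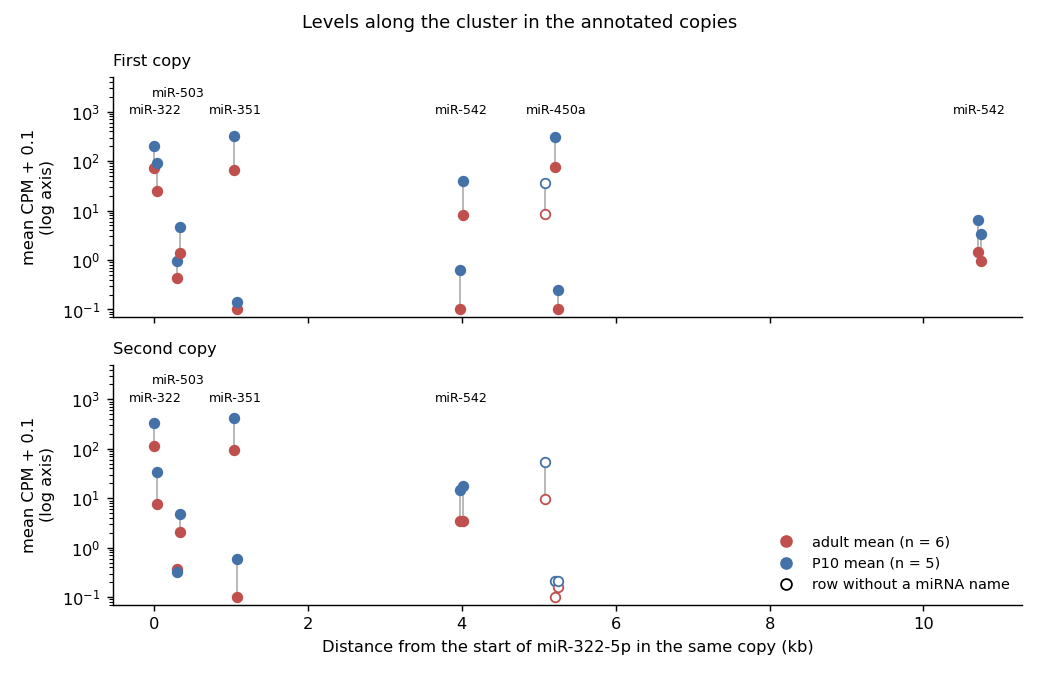
Mean level of each row along the first (top) and second (bottom) annotated copy of the cluster, as CPM plus 0.1 on a log axis, against distance from the start of miR-322-5p; red is the mean of 6 adult libraries, blue that of 5 P10 libraries, and open circles are rows with no miRNA name. Adult means lie below P10 means at every row of both copies except miR-503-5p in the second copy (0.264 CPM in adults, 0.218 CPM at P10).

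Adult islets held less of every cluster arm that could be tested. Levels are given as CPM, which are counts scaled to a common library size, here adjusted by trimmed mean of M-values (TMM), and each arm was tested with edgeR's quasi-likelihood test across all 457 features that passed an abundance filter. The 7 tested arms together summed to 321.3 ± 89.7 CPM in adults (n = 6) and 1203 ± 226 CPM at P10 (n = 5; ± SD), with adult libraries between 224.6 and 454.7 CPM and P10 libraries between 978.8 and 1552.2 CPM. All 7 were called lower in adults at an adjusted p below 0.05, a call made for 29.5% of all tested features (50.8% were called in either direction). Adult and P10 libraries did not overlap for 6 of the 7, and all adult values lay below all P10 values for 16.4% of tested features. Of the 10 names, 7 passed the filter, and only 4 of these had at least 10 counts in every adult library; the counts of calls thus describe the arms abundant enough at P10 to be tested. The median log2 fold change was -2.01 over the 7 arms and -0.11 over all tested features. In bulk islet RNA, fewer cells that make these miRNAs and fewer copies in each cell cannot be told apart.

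miR-322-5p, the arm with the miR-15/16 seed, ranged in adults from 69.8 CPM through a median of 120.1 to 149 CPM. In P10 replicates 1, 3, 4, 5 and 6 it was at 187.6, 445, 364.9, 351.6 and 333.7 CPM. Every adult library lay below every P10 library, although P10 replicate 1 came close to the highest adult. The means were 112.2 ± 33.3 CPM in adults (n = 6) and 336.6 ± 93.5 CPM at P10 (n = 5; ± SD). This was a 3.00-fold fall, or -1.58 ± 0.24 as log2 fold change (SE; edgeR adjusted p = 0.000142).

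miR-322-3p, the opposite strand of that hairpin, was less abundant and more even among pups. It ranged from 14.5 through a median of 22.5 to 35.7 CPM in adults, against 76.3, 94.1, 102.1, 100.6 and 87.5 CPM in P10 replicates 1, 3, 4, 5 and 6. The pup libraries varied by 11.5% around their mean (coefficient of variation) and the adult libraries by 36.4%. It fell 3.75-fold in adults (log2 fold change -1.91 ± 0.22, SE; edgeR adjusted p = 1.07e-05).

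miR-351-5p, which carries the miR-125 seed, had the highest P10 mean of the cluster and the widest spread among pups. Adults ranged from 66.9 through a median of 81.7 to 154.1 CPM. P10 replicates 1, 3, 4, 5 and 6 held 457.2, 638.6, 248, 471 and 252.4 CPM. The pups divided into 3 libraries above 450 CPM and 2 near 250 CPM, all above the highest adult, and replicate 3 was the highest. The means of 95.4 ± 33.4 CPM in adults and 413.4 ± 165.3 CPM at P10 gave a 4.34-fold fall (log2 fold change -2.12 ± 0.29, SE; edgeR adjusted p = 5.2e-05).

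miR-450a-5p, which has a row by that name in the first copy only, ranged from 42.8 through a median of 82.1 to 99.1 CPM in adults. It was at 223.6, 305.9, 349.8, 304.6 and 322.9 CPM in P10 replicates 1, 3, 4, 5 and 6, with no overlap between the ages. It fell 4.02-fold, with means of 75.0 ± 23.3 CPM in adults and 301.4 ± 47.1 CPM at P10 (log2 fold change -2.01 ± 0.22, SE; edgeR adjusted p = 6.52e-06).

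The miR-542 arms were less abundant and had the largest fold-change estimates of the cluster. These rested on few adult counts, 9 to 22 per library for miR-542-3p and 4 to 8 for miR-542-5p. miR-542-3p ranged from 4.43 through a median of 7.64 to 13.7 CPM in adults, against 18.8, 44.4, 51.4, 39.6 and 43.5 CPM in P10 replicates 1, 3, 4, 5 and 6. The ages did not overlap, and the low pup library was again replicate 1. Its log2 fold change was -2.32 ± 0.30 (SE; edgeR adjusted p = 2.95e-05). miR-542-5p averaged 3.30 ± 1.83 CPM in adults and 14.8 ± 2.26 CPM at P10 and fell 4.79-fold (edgeR adjusted p = 3.03e-05). Adult replicate 1, at 6.77 CPM, was its highest adult library, and the other 5 lay between 1.53 and 3.44 CPM.

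miR-503 was close to the detection limit in both ages. Its 3p arm averaged 2.66 ± 0.842 CPM in adults and 5.22 ± 1.16 CPM at P10 (log2 fold change -0.99 ± 0.27, SE; edgeR adjusted p = 0.00822). With the higher row taken in each library, it alone of the tested arms overlapped between ages, as adult replicate 4 (4.1 CPM) lay above P10 replicate 1 (3.3 CPM). The arm rested on 3 to 6 counts in each adult library and 9 to 24 in each P10 library. With counts summed over copies, adult replicate 4 held 7 counts and P10 replicate 1 held 15. The log2 fold change was then -1.515 ± 0.291 (SE; edgeR adjusted p = 0.000697), so its size depended on how copies were counted. miR-503-5p, the arm with the AGCAGCG seed, had 0 to 2 counts per adult library and 1 to 4 per P10 library and was not tested. Summed over copies and libraries, miR-503 gave 6 counts of the 5p arm and 35 of the 3p arm in adults, against 16 and 153 at P10. A change in miR-503-5p was not detectable at this depth.

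The remaining names were at or under the limit of detection. miR-351-3p had 0 counts in all adult libraries and 0 to 3 at P10, and miR-450a-3p had 0 counts in all adult libraries and 0 or 1 at P10. A count of 0 allows up to 3 counts, or 1.05 to 2.09 CPM of the library totals in adults. For miR-351 and miR-450a, therefore, nearly all reads came from the 5p arm: 1778 of 5p and 0 of 3p for miR-351 in adults, against 11029 and 8 at P10, and 868 and 0 for miR-450a in adults, against 5080 and 3 at P10. miR-542 was the reverse, with 48 counts of 5p and 134 of 3p in adults, against 352 and 1034 at P10. Adapter ligation favours some ends over others, so such levels compare arms less surely than they compare ages.

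**Figure D2:**
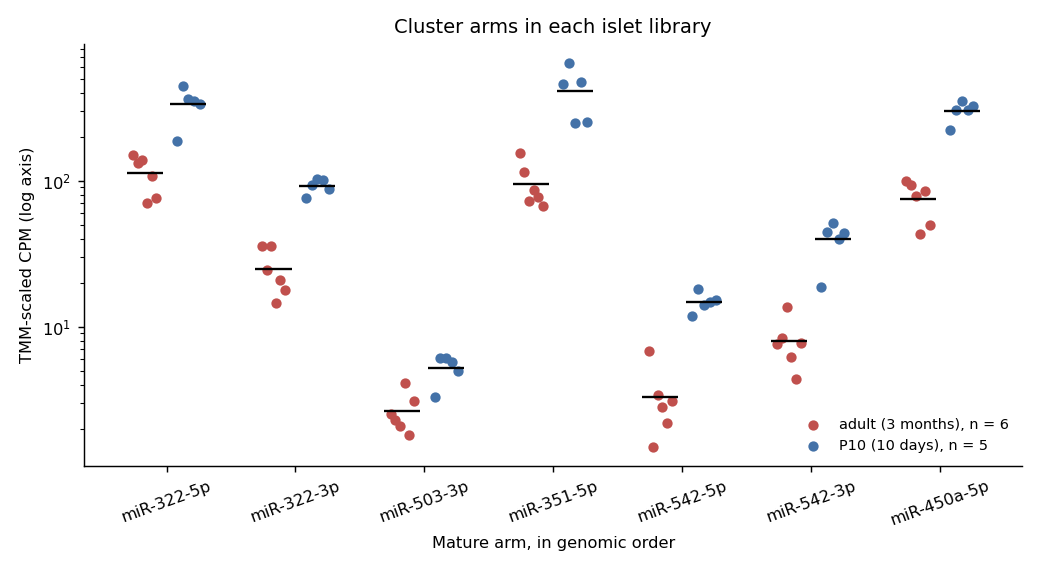
TMM-scaled CPM (log axis) of the 7 tested arms in each library, in genomic order from miR-322 to miR-450a; each point is 1 library, adults (red, n = 6) left of P10 (blue, n = 5), and black lines are group means. Adults lie below all P10 libraries for every arm except miR-503-3p, whose adult range of 1.84 to 4.14 CPM overlaps the P10 range of 3.30 to 6.07 CPM.

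The order of the libraries within an age varied with the arm. Among adults, replicate 1 was highest for 4 of the 7 tested arms, replicate 3 for 2 and replicate 4 for miR-503-3p. Replicate 4 was also lowest for 3 arms, replicate 5 for 2 and replicates 2 and 6 for 1 each. Among pups, replicate 1 was lowest for 6 of the 7 arms, the exception being miR-351-5p, for which it was the median library and replicate 4 the lowest. Replicates 3 and 4 were highest for 3 and 4 arms.

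Between the strands of a hairpin, no shift with age passed in limma, with each arm entered at its higher row. For miR-322 and miR-542 this set the 5p row of the second copy against the 3p row of the first. Rows of both copies tied for miR-542-5p in adult replicate 2. The log2 ratio of 5p to 3p for miR-322 averaged 2.16 ± 0.19 over the 6 adults and 1.81 ± 0.34 over the 5 pups (SD). The difference was 0.35 ± 0.19 (SE; limma adjusted p = 0.177 over 127 precursors). For miR-542 it was -1.14 ± 0.67 in adults and -1.31 ± 0.44 at P10, a difference of 0.17 ± 0.31 (SE; limma adjusted p = 0.763), and -0.037 without adult replicate 1. Such shifts were called for 22.8% of the 127 precursors. The unadjusted limma p was 0.0922 for miR-322 and 0.595 for miR-542, so neither was below 0.05. The ratio of miR-322-3p to miR-322-5p, tested below by permutation, is the same strand ratio inverted. Its exact permutation p was 0.039 (adjusted p = 0.0779), and it passed with counts summed over copies (adjusted p = 0.00866). A strand shift of miR-322 thus depended on the test and on how copies were counted.

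Whether the arms changed by the same amount was asked with ratios to miR-322-5p inside each library, which do not depend on scaling between libraries. The 5 arms miR-322-3p, miR-351-5p, miR-450a-5p, miR-542-3p and miR-542-5p had lower mean ratios in adults, with log2 differences of -0.68 to -0.36, and miR-503-3p a higher one, with 0.70. None of the 6 ratios passed after adjustment (two-sided exact permutation tests), and 3 had an unadjusted p below 0.05. The smallest was that of miR-450a-5p, with log2 ratios of -0.59 ± 0.16 in adults (n = 6) and -0.12 ± 0.29 at P10 (n = 5; ± SD; exact permutation p = 0.0108, adjusted p = 0.0649). With counts summed over copies, 3 of the 6 ratios passed: those of miR-322-3p (-0.45, adjusted p = 0.00866), miR-450a-5p (-0.52, adjusted p = 0.00649) and miR-542-3p (-0.71, adjusted p = 0.00649), by the same exact permutation test. That of miR-503-3p was then 0.13 (adjusted p = 0.725), so its higher ratio depended on how copies were counted. The 3 arms that passed fell further than miR-322-5p when all copies were counted. miR-351-5p had the widest ratios among pups, from -0.56 to 1.28, and did not pass either way (adjusted p = 0.201).

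**Figure D3:**
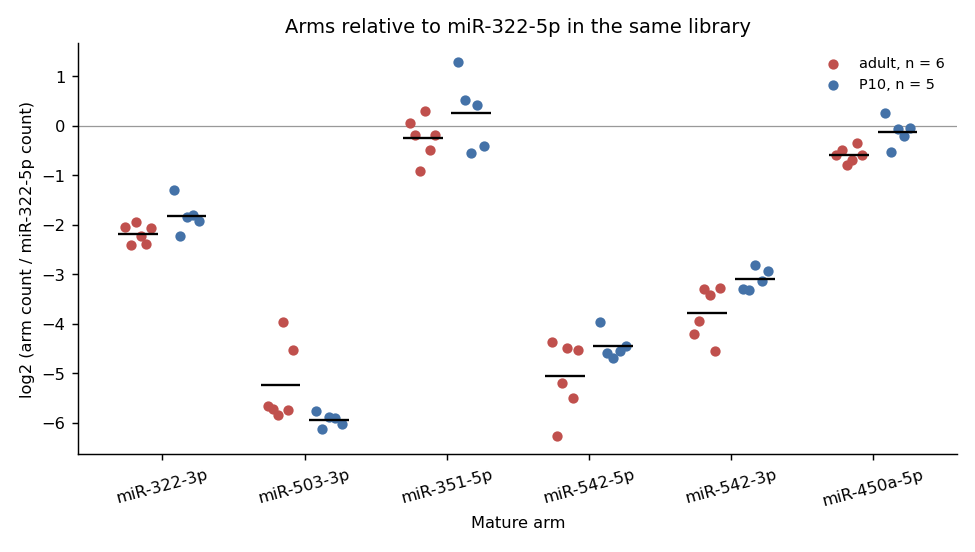
Log2 ratio of each tested arm to miR-322-5p in the same library (counts plus 0.5); points are libraries, adults (red, n = 6) left of P10 (blue, n = 5), and black lines are means. Group means differ by -0.68 to 0.70, and adult and P10 libraries overlap for all 6 arms.

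The table also lists reads between the named rows. ENSRNOT00000070944_-5p (chromosome X, 152778568 to 152778588, plus strand) starts 133 bases upstream of miR-450a-5p in the first copy, and ENSRNOT00000075147_-5p (153216287 to 153216307) lies at the matching place in the second. Neither identifier is paired with a miRNA name in the files or the RefSeq table, and neither is a member. In GRCr8, RefSeq places miR-450b-5p, of the same length of 21 bases, 133 bases upstream of miR-450a-5p. The first row fell 4.27-fold in adults, to 8.27 ± 2.12 CPM, against 35.3 ± 5.60 CPM at P10 (edgeR adjusted p = 3.51e-06). The second fell 5.55-fold, to 9.65 ± 2.60 CPM in adults, against 53.5 ± 4.20 CPM at P10 (edgeR adjusted p = 6.56e-07). For both, adult and P10 libraries did not overlap. At the place of miR-450a-5p in the second copy, the table lists an unnamed pair of arms with 0 or 1 counts in every library.

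Of the 6 tested arms of the miR-15/16 family outside the cluster, 3p arms with other seeds included, 2 fell, 0 rose and 4 did not pass. That is 33.3% lower, near the 29.5% of all tested features, and the median log2 fold change was -0.16. miR-16-5p, the most abundant, was at 7674 ± 702 CPM in adults and 6864 ± 2389 CPM at P10 (edgeR adjusted p = 0.507). miR-15b-5p fell 1.48-fold, to 91.8 ± 12.1 CPM in adults, against 136.4 ± 17.3 CPM at P10 (edgeR adjusted p = 0.00368), and miR-15b-3p fell by 1.04 on the log2 scale (edgeR adjusted p = 0.0414). miR-195-5p averaged 103.5 ± 35.1 CPM in adults and 110 ± 15.3 CPM at P10, and miR-497-5p 55.0 ± 11.4 and 64.5 ± 10.8 CPM, and neither passed.

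Among the arms that share the AGCAGCA seed, miR-322-5p made up 1.40% ± 0.422 of the counts over the 6 adults and 4.64% ± 1.10 over the 5 pups (SD). These shares took miR-322-5p at its higher row and leave out its counts at the other copy. Adult libraries ran from 0.943% to 1.91% and pups from 3.05% to 6.14%, without overlap (exact two-sided permutation p = 0.00216, the smallest that 6 against 5 libraries can give). The difference was -3.24 percentage points, and -4.93 with counts summed over loci and rows of a name (same p). miR-16-5p made up 95.5% ± 0.971 in adults and 90.8% ± 2.27 at P10. Reads with this seed thus came mostly from miR-16-5p at both ages. The miRNAs with the seed of miR-351-5p, looked up after its values were seen, did not fall with it. miR-125a-5p rose slightly to 11060 ± 1069 CPM in adults, against 8793 ± 1482 CPM at P10 (log2 fold change 0.33 ± 0.12, SE; edgeR adjusted p = 0.0327). miR-125b-5p was at 555.7 ± 107 CPM in adults and 557.4 ± 116 CPM at P10 (edgeR adjusted p = 0.983).

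Other chromosome X miRNAs went both ways, in shares near those of all features. Of 33 tested features on that chromosome outside the cluster, 7 were lower in adults, 8 higher and 18 not called, where 29.5% of all tested features were lower and 21.2% higher, with a median log2 fold change of -0.11, equal to that of all tested features. Examples, picked after their values were seen, are miR-221-3p (log2 fold change -1.22), which fell, and miR-384-5p (1.85), which rose.

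**Figure D4:**
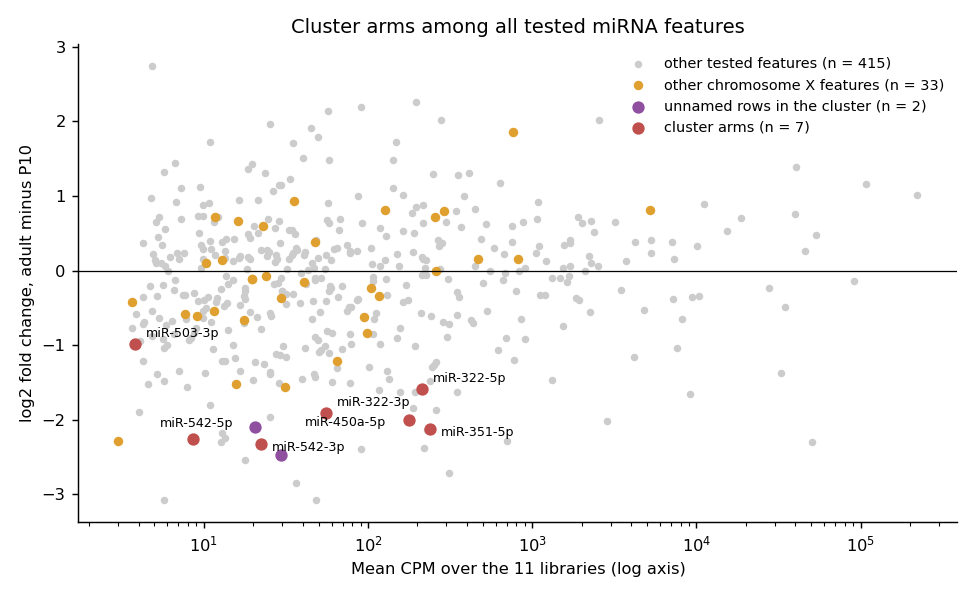
Log2 fold change, adult minus P10, against mean CPM over the 11 libraries (log axis) for the 457 tested features; cluster arms are red and labelled, unnamed rows within the cluster purple, other chromosome X features orange and all others grey. The 7 cluster arms lie between -0.99 and -2.32, and the other chromosome X features on both sides of 0.

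Other miRNAs followed a similar course. Likeness to miR-322-5p was measured as the mean absolute difference of log2 CPM over the 11 libraries, each miRNA centred on its own mean. Of 450 features outside the cluster, the closest was miR-21-5p (0.24), abundant in many growing and injured tissues. It was at 4639 ± 1067 CPM in adults and 14600 ± 4095 CPM at P10. The next 4 were the antisense feature miR-3570-5p, miR-93-5p of the miR-106b to miR-25 cluster, the antisense feature miR-3567-3p and miR-181a-5p, at 0.27 each. Being picked for likeness to an arm that fell, they carry no separate evidence of a fall.

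Markers of other cell types were read in the same libraries, where 29.5% of all tested features were lower in adults and 21.2% higher. The libraries carried the islet signature: miR-375-3p was at 287900 ± 26980 CPM in adults and 143200 ± 21150 CPM at P10, and 5 of 7 tested islet endocrine arms were higher in adults. Of the 6 arms of the mesenchymal markers miR-143, miR-145 and miR-199a, which mark fibroblasts and smooth muscle, 4 were lower in adults, 0 higher and 2 not called, and none was at 0. Their summed CPM ran from 17177 to 58305 in adults and from 33256 to 61145 at P10. Their mean log2 CPM ran from 6.91 to 8.49 in adults and from 8.76 to 9.16 at P10. Of the leukocyte markers 1 of 4 tested arms was lower, a share under that of all features, and the highest log2 fold change was 0.72 for miR-223-3p, which did not pass (edgeR adjusted p = 0.101; summed 249 to 832.5 CPM in adults, 681.2 to 1427 CPM at P10), and of the acinar markers 2 of 3 were higher (28.6 to 127.1 CPM in adults, 22.2 to 37.7 CPM at P10). The erythroid markers gave 0 calls in 2 tested arms (edgeR; 14.5 to 63.8 CPM in adults, 24.2 to 72.3 CPM at P10). No endothelial value is given, as no row carried the name miR-126. The mesenchymal list also held miR-199b and miR-214, which had no sense row by those names.

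With the mesenchymal mean as a covariate, 0 of the 7 cluster arms passed in edgeR, with a median log2 fold change of -1.12 and all 7 still below 0. Few features of any kind passed in that fit: 33 of all 457 tested, 14 of them lower in adults, against 232 without the covariate. This covariate correlates with age at -0.87. In that fit miR-322-5p was at -0.60 ± 0.44 (SE; edgeR adjusted p = 0.444) and miR-542-3p at -1.98 ± 0.735 (adjusted p = 0.124). Adult replicate 1 had a mesenchymal mean of 8.49, 0.28 below the lowest pup library, P10 replicate 1. Their cluster sums were 454.7 and 978.8 CPM. Single markers differed between these libraries in both directions, so they were not matched. miR-143-3p was at 57190 CPM in adult replicate 1 and 30835 CPM in P10 replicate 1, and miR-143-5p and miR-145-3p were also higher. miR-199a-3p was at 559.6 and 1197.2 CPM, and miR-199a-5p and miR-145-5p were also lower. Within the 6 adults, miR-351-5p had the highest Pearson correlation with the mesenchymal mean (r = 0.94, exact permutation p = 0.0153, adjusted p = 0.107 over 7 arms; Spearman rho = 0.83, exact permutation p = 0.0583). It rested on adult replicates 1 and 2, without which r was 0.14. For miR-322-5p r was 0.77 (exact permutation p = 0.0694; rho = 0.77, p = 0.103), and 0.85 without those libraries. For miR-542-3p r was 0.07 (exact permutation p = 0.882; rho = -0.03, p = 1), and -0.01 without them. For miR-450a-5p r was 0.78, and 0.93 without adult replicates 1 and 2. Its Spearman rho over the 6 adults was 0.94 (exact permutation p = 0.0167, not adjusted). miR-503-3p went the other way, with r = -0.32, and -0.86 without those libraries. The remaining arms were miR-322-3p (r = 0.68, and 0.64 without them) and miR-542-5p (0.48, and -0.32 without them). No Pearson correlation passed after adjustment over the 7 arms. The part of mesenchymal cells in the fall was not tested.

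**Figure D5:**
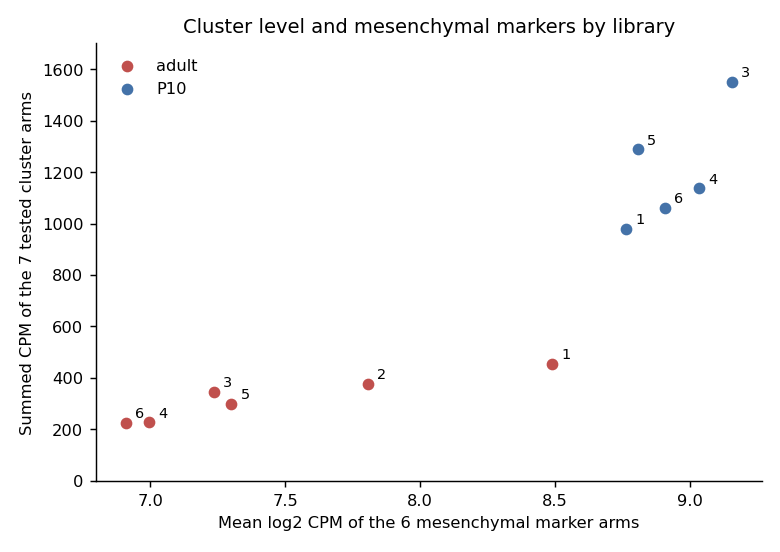
Summed CPM of the 7 tested cluster arms against the mean log2 CPM of the 6 mesenchymal marker arms, 1 point per library, numbered by replicate (adults red, P10 blue). Adult libraries span 6.91 to 8.49 on the marker axis and 224.6 to 454.7 CPM, and P10 libraries 8.76 to 9.16 and 978.8 to 1552.2 CPM.

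The direction of the cluster did not hang on the scaling. Among all tested features 97 were higher and 135 lower in adults (41.8% of calls higher), against 54 higher and 187 lower under library totals (22.4%) and 127 higher and 103 lower under upper-quartile scaling (55.2%). These scalings shifted the median of all features by -0.26 and 0.16 on the log2 scale. All 7 cluster arms were called lower under each, with medians of -2.27 and -1.85.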

How the data were processed

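Small RNA of isolated rat islets was sequenced from TruSeq libraries made with total RNA extracted with Trizol, per the labels' protocols. The authors deposited raw read counts, 1 row per mature arm and genomic position, with Rnor_5.0 coordinates per the file headers (rn5 in the submitters' processing notes, which also name edgeR and DESeq). Aligner, counting rule and annotation: not given in the sources used here. Counts are taken as PCR reads, since no source mentions molecular identifiers. The 11 per-library tables held the same counts as the series table. Library totals were 1432929 to 2847837 counts in adults and 1599157 to 4483017 at P10, so 1 count is under 1 CPM in every library, and floors cover counting error only. Every pair of same-age libraries differed by more than sampling noise, the closest having a chi-square of 11.7 per degree of freedom. As labels do not state separate animals, p-values measure the spread between these libraries.

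Each name entered once, with its highest count over rows in each library. The main test was the robust quasi-likelihood test of edgeR 4.0.16 (R 4.3.3) on age, adult over P10, after its expression filter and TMM scaling, with Benjamini-Hochberg adjustment over 457 features and a threshold of 0.05; SEs came from the quasi-likelihood statistic. Arm ratios used limma 3.58.1 with a prior count of 2, ratios to miR-322-5p a pseudocount of 0.5, and single values exact permutation tests of the library labels. The model steps were tested on simulated data. Alternatives were DESeq2's size factors, library totals, upper-quartile scaling, TMM without miR-375-3p, other filters, DESeq2 1.42.0, limma-voom, a replicate block, summed rows, a mesenchymal covariate and leaving out each library; rows kept separate was chosen after seeing the data, as were the copy-share tests, the seed look-up for miR-351-5p and the correlations within adults. The members, lists and tests were chosen with earlier results of these data known. Outside the cluster, the miRNAs named are the 5 closest to miR-322-5p, the miR-15/16 family and the marker lists; other names, on chromosome X and at the locus, were chosen after their values were seen.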

Additional observations from a re-analysis of the deposited data

Results flagged for a closer look

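Within 1 age, 3 values stood far from those of the other libraries, among 40 groups of libraries examined; chance alone marks about 1 group in 20. miR-542-5p was at 6.77 CPM in adult replicate 1 and between 1.53 and 3.44 CPM in the other adults. The second annotated copy held 68.75% of miR-322-5p counts in adult replicate 1 (95% Wilson interval 62.8% to 74.1%) and 55.5% to 60.4% in the other adults. At P10 it held 69.4% of them in replicate 3 (66.4% to 72.2%) and 59.0% to 61.3% in the other pups.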

How the results depend on the processing

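The 7 cluster arms were called lower in adults wherever they were tested, in all 21 alternatives other than the mesenchymal covariate (139 of 139 values, all below 0). With that covariate 0 of 7 passed and 33 of all features did, against 232. miR-503-3p failed the abundance filter in 7 alternatives and miR-542-5p in 1, so the count ran from 6 to 7 without single libraries, was 5 at a mean CPM of at least 10 and 6 with the replicate block, which changed no cluster call. Deviations of same-numbered libraries from their age means correlated at -0.21 to 0.20, of mixed sign and not tested. This cannot exclude that same-numbered libraries were handled together. With rows kept separate, 11 of 11 tested rows were called lower, as were 135 of all 469 tested features. The rows include both copies of some arms, so this larger count adds no separate support. All features called ran from 197 to 230 without single libraries.

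Ratios to miR-322-5p were the least settled. With a pseudocount of 2, those of miR-450a-5p (-0.46) and miR-503-3p (0.93) passed, and with summed rows those of miR-322-3p (-0.45), miR-450a-5p (-0.52) and miR-542-3p (-0.71), while miR-503-3p was at 0.13; the cause was not tested. Leaving out adult replicate 2, 3, 5 or 6 or P10 replicate 3 let up to 4 pass. Over single left-out libraries they ran from -0.47 to -0.23 (miR-322-3p), -0.70 to -0.23 (miR-351-5p), -0.57 to -0.38 (miR-450a-5p), 0.44 to 0.82 (miR-503-3p), -0.78 to -0.52 (miR-542-3p) and -0.75 to -0.37 (miR-542-5p). With the replicate block over 32 splits none could pass (smallest p 0.0625). The miR-542 arm difference was -0.037 without adult replicate 1, and ran to 0.34; that of miR-322 ran from 0.21 to 0.45. The seed pool difference ran from -3.64 to -2.86 percentage points without single libraries, was -4.93 with summed loci and rows, and passed throughout. Depth limits miR-503, both miR-542 arms in adults and the untested arms.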
